A study of Mus musculus with 47 samples.

Results

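The conventional ileum was followed through a day in 12 of the 47 libraries of the series, which are all the libraries labelled conventionally raised (convR, with a gut flora) and ileum. RNA was taken from ileum at 6 zeitgeber times (ZT, hours of the light cycle) from ZT2 to ZT22 in steps of 4 h, with 2 libraries per time, from male C57BL/6j mice of 15 to 16 weeks under an ad libitum feeding regime. Total RNA depleted of ribosomal RNA was sequenced, and the deposited values are read counts per gene. Germ-free (GF, raised without microorganisms) ileum with 11 libraries and convR duodenum with 12, from mice of the same strain, sex and age, serve as comparisons. Whether each library came from its own animal is not in the labels; p-values here measure only how far these samples spread, which may be technical.

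Most mammalian cells hold a molecular clock, in which Clock and Bmal1 (gene Arntl) switch on their own repressors of the Per and Cry families. The intestine adds cues from feeding, and its epithelium, vessels, connective tissue and immune cells each hold such a clock. The question here is which genes outside that clock follow the day in conventional ileum, at what time they peak and what they do. Each gene was fitted with a cosine of 24 h, and a gene is called rhythmic here when the edgeR F test of that cosine gave a Benjamini-Hochberg adjusted p under 5%. Peak times and peak-to-trough ranges (the fitted highest minus the fitted lowest value on log2(CPM + 0.5), with SE) come from a least-squares cosine over the 12 libraries. A range of 1 is a fold of 2 from trough to peak.

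Each library held between 29.1 and 41.9 M counts (1 M is 1000000 reads). The 2 libraries of a time differed by more than counting noise at all 6 times, by chi-square (45.3 to 122 for each degree of freedom). The defining ileal gene Fabp6, a bile acid binding protein, lay between 2294 and 3975 CPM (counts scaled to 1000000 per library, with TMM) in 11 libraries and at 217 CPM in ZT6 replicate 2. Lct, lactase of the upper intestine, was at 2.89 to 3.92 CPM in replicate 1 of ZT6, ZT14 and ZT22, at 48.0 CPM in ZT10 replicate 1 and at 183 to 1068 CPM in the others. Replicate 2 was above replicate 1 in the mean log2 level of the duodenum and jejunum markers at all 6 times. Since replicate number went with these markers, the number was also fitted as a block, and the blocked count stands beside each count of convR ileum that it moved by over 1.5 times.

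The clock genes, given only as a check of the time labels, followed the time in both replicates. Dbp, a clock output factor, was at 39.0 to 52.1 CPM in the 4 libraries of ZT10 and ZT14 and at 3.15 to 10.5 CPM in the other 8. Arntl ran the other way, at 12.7 to 19.99 CPM in those 4 and at 29.5 to 68.1 CPM elsewhere. These 2 genes set the libraries of ZT10 and ZT14 apart from the rest and do not tell ZT2 from ZT22. Of the 26 core clock genes 3 were called (Tef, Per3 and Nr1d2) and 17 had an unadjusted p under 0.05. The fitted peaks of these 3 called genes were later here than in GF ileum and in convR duodenum. Tef peaked at ZT13.9 here, against ZT11.9 in GF ileum and ZT12.2 in duodenum. Per3 peaked at ZT13.7, against ZT12.4 and ZT11.9, and Nr1d2 at ZT12.7, against ZT10.8 and ZT9.2. Why these peaks were later was not tested. The cosine took up 87.6% of the variance of Tef but 59.2% of that of Per2. Per2 was at 37.04 and 26.7 CPM at ZT22, at 62.2 and 37.96 CPM at ZT2 and at 22.8 and 13.5 CPM at ZT6, so that both libraries of ZT2 exceeded both of ZT22. Cry1 was at 28.9 and 36.9 CPM at ZT22 and at 36.7 and 49.5 CPM at ZT2, where the pairs overlapped. Whether the libraries of ZT22 and ZT2 hold the times on their labels was not tested, and the peaks given below between ZT1 and ZT6 rest on those labels.

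Across all genes, 20 of the 19277 tested were called rhythmic (0.104%), 17 of them outside the clock. With the replicate block the test called 47 (0.244%), 44 of them outside the clock, and 19 of the 20 were among them. An unadjusted p under 0.05 was reached by 1619 genes (8.4%), or 2583 with the block (13.4%). Of the 1619, 815 had a peak from ZT0 to ZT12 (4.23%) and 804 a peak from ZT12 to ZT24 (4.17%). The called genes outside the clock fell into separate times of day: 13 peaked between ZT1.2 and ZT5.5, and 4 between ZT14.6 and ZT16.0. None peaked between ZT8 and ZT12 or between ZT20 and ZT24. Of the 47 called with the block, clock genes included, 24 peaked from ZT0 to ZT4, 3 from ZT4 to ZT8 and 1 from ZT8 to ZT12. Another 14 peaked from ZT12 to ZT16, 5 from ZT16 to ZT20 and 0 from ZT20 to ZT24. DESeq2 called 268 genes, and the same least-squares cosine put 28 of them between ZT8 and ZT12 and 21 between ZT20 and ZT24. The ranges of the 17 ran from 0.66 to 2.19, with a median of 0.96, against a median of 0.20 over all genes tested. The count is fragile: leaving out 1 library gave 1 (without ZT14 replicate 1) to 35 (without ZT6 replicate 1), and 0 genes passed in edgeR without the 2 libraries of ZT10 (899 with an unadjusted p under 0.05) or without the 2 of ZT14 (988). Without the 2 libraries of ZT22 the test called 163 genes, with all 20 among them, and 73 of the 163 had a fitted peak at the unsampled hours of ZT20 to ZT24. In every one of these fits each of the 20 genes kept an unadjusted p under 0.05.

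**Figure D1:**
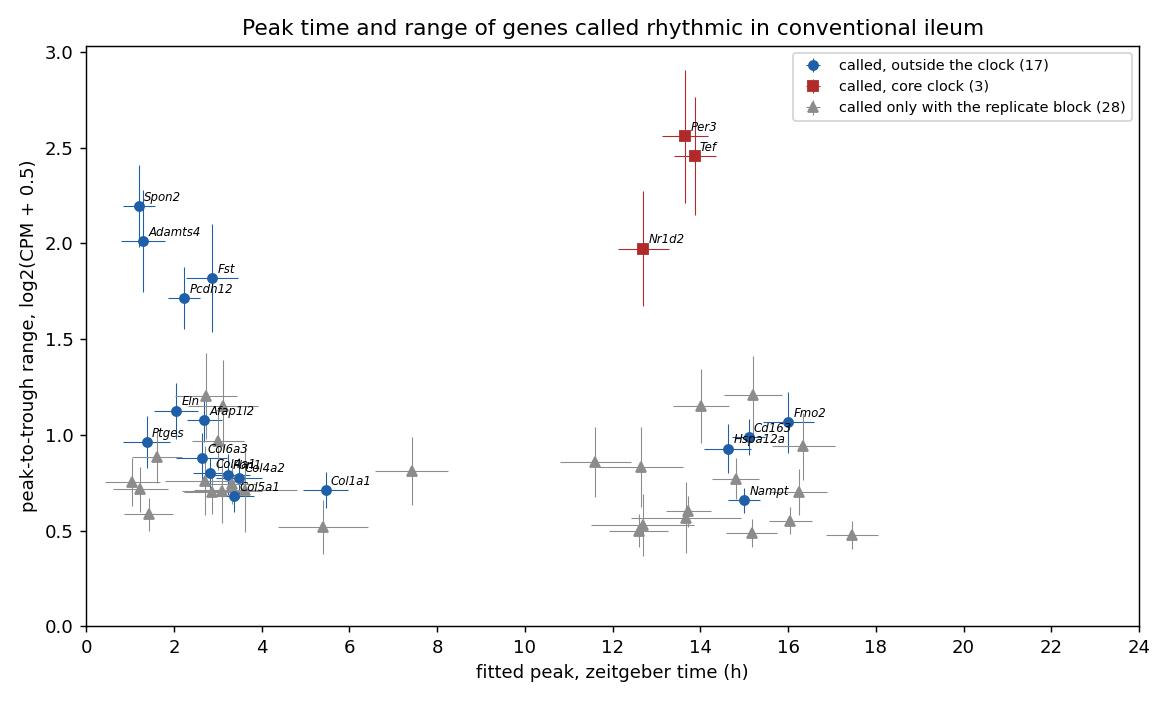
Fitted peak time (zeitgeber time, h) against peak-to-trough range (log2(CPM + 0.5)) with SE for genes called rhythmic in conventional ileum: 17 outside the clock, 3 of the core clock, and 28 called only with the replicate block. The genes gather between ZT1 and ZT6 and between ZT11 and ZT18, with 1 point at ZT7.4 and none between ZT18 and ZT24.

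Among the 17 called genes outside the clock, the 4 largest ranges belonged to genes of secreted and cell surface proteins with a peak shortly after the start of the cycle. Spon2 (mouse genome mm10, chr5:33198184-33218455), which codes for the matrix protein spondin 2 (mindin), had the smallest p of all genes. Its level, replicate 1 first, was 18.8 and 23.1 CPM at ZT2, 17.7 and 17.8 at ZT6, 5.82 and 5.25 at ZT10, 4.38 and 5.33 at ZT14, 8.64 and 11.2 at ZT18, and 16.2 and 19.9 at ZT22. The 6 libraries of ZT22, ZT2 and ZT6 were all above 16 CPM and the 4 of ZT10 and ZT14 all under 6 CPM. The fit gave a peak at ZT1.2 ± 0.37 h, a range of 2.19 ± 0.21 and an adjusted p of 0.00425, a 4.57-fold change from trough to peak.

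Pcdh12 (chr18:38267089-38284402), a cadherin-like adhesion protein of endothelial cells, followed with a peak at ZT2.2 ± 0.36 h, a range of 1.71 ± 0.16 and an adjusted p of 0.00951. It was measured at 4.80 and 4.25 CPM at ZT2, 3.79 and 4.70 at ZT6, 1.88 and 1.71 at ZT10, 0.915 and 1.08 at ZT14, 1.996 and 2.04 at ZT18, and 2.92 and 3.71 at ZT22. Replicates lay close together, and the 4 libraries of ZT2 and ZT6 lay above the other 8. Fst (chr13:114452290-114458951) codes for follistatin, a secreted binding protein that blocks activins, and gave a peak at ZT2.9 ± 0.59 h, a range of 1.82 ± 0.28 and an adjusted p of 0.0354. Its libraries read 5.16 and 3.46 CPM at ZT2, 3.49 and 3.96 at ZT6, 1.09 and 1.51 at ZT10, 1.01 and 1.16 at ZT14, 1.79 and 0.566 at ZT18, and 2.47 and 2.42 at ZT22. All 4 libraries of ZT2 and ZT6 were above the other 8, while the pair of ZT18 was apart from each other.

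Adamts4, a protease that cuts the matrix proteoglycan aggrecan, gave a peak at ZT1.3 ± 0.50 h, a range of 2.01 ± 0.27 and an adjusted p of 0.0354 at a mean of only 1.83 CPM, below the 2 CPM asked of named genes. Ptges (chr2:30889471-30929863), the inducible enzyme that makes prostaglandin E2, gave a peak at ZT1.4 ± 0.53 h, a range of 0.96 ± 0.13 and an adjusted p of 0.0499, at 9.08 and 8.46 CPM at ZT2, 6.31 and 7.05 at ZT6, 5.35 and 4.65 at ZT10, 3.60 and 3.89 at ZT14, 5.44 and 6.43 at ZT18, and 6.10 and 7.81 at ZT22. The ZT2 libraries were the highest of the 12 and those of ZT14 the lowest. Afap1l2, an adaptor protein bound to actin filaments, gave a peak at ZT2.7 ± 0.41 h, a range of 1.07 ± 0.11 and an adjusted p of 0.0296 at a mean of 2.91 CPM.

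**Figure D2:**
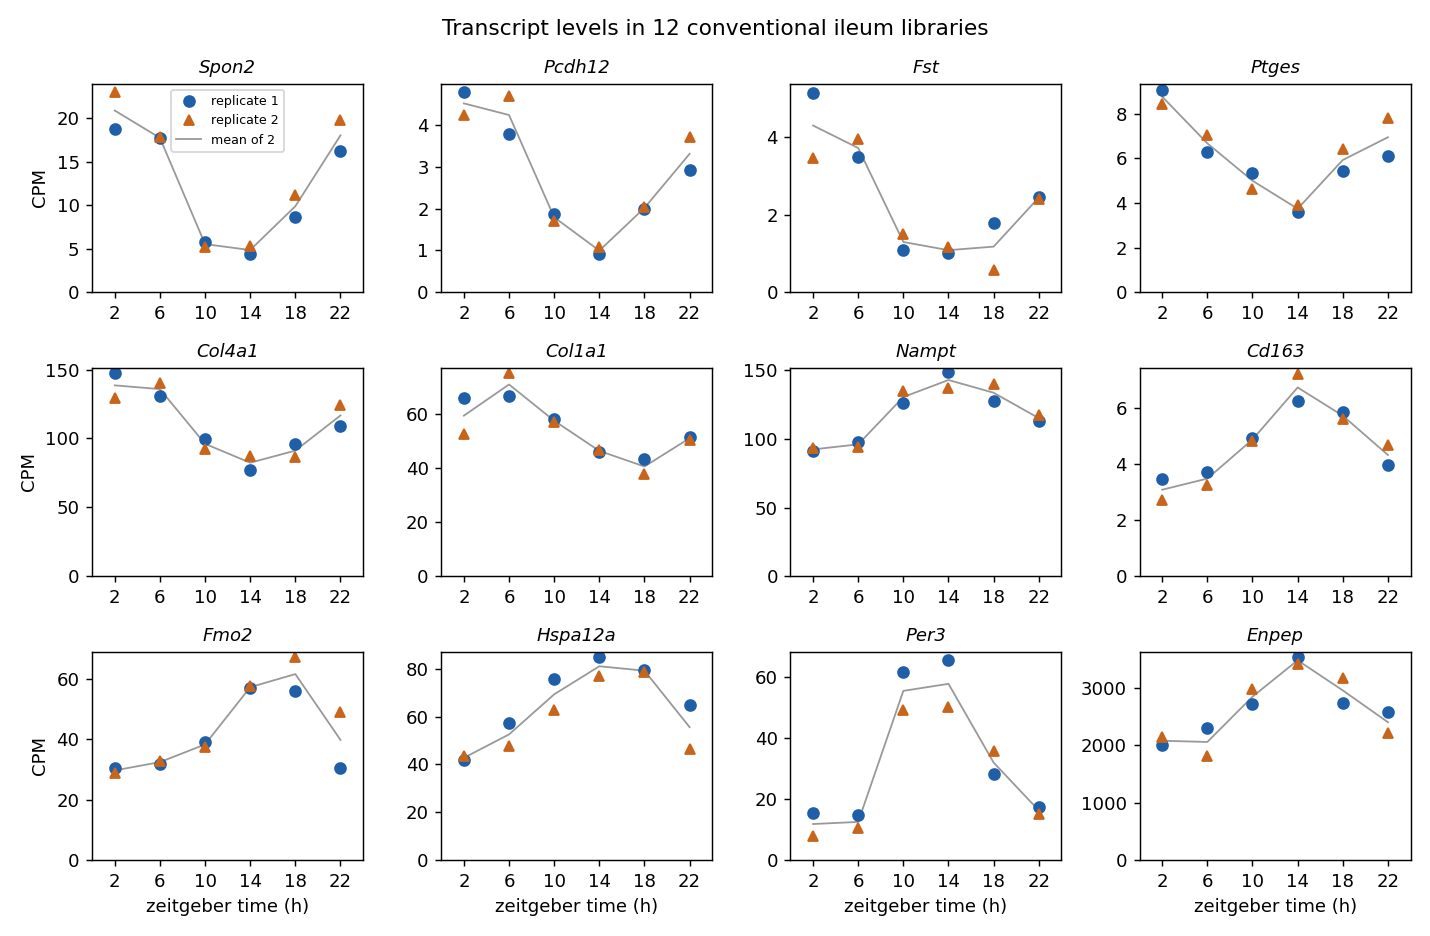
CPM in each of the 12 conventional ileum libraries against zeitgeber time (h) for 10 called genes outside the clock, the clock gene Per3, and Enpep, which was called only with the replicate block. Circles are replicate 1, triangles replicate 2 and lines the mean of the 2; Spon2, Pcdh12, Fst, Ptges, Col4a1 and Col1a1 have their highest mean at ZT2 or ZT6, and the other genes of the panels at ZT14 or ZT18.

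Of the 17 genes 7 code for structural proteins of the extracellular matrix. They were 5 collagen chains, the microfibril protein fibrillin 1 (Fbn1) and elastin (Eln), and all 7 peaked between ZT2.0 and ZT5.5. Col4a1 and Col4a2 code for the 2 chains of the common type IV collagen of basement membranes. They lie head to head on chromosome 8 (Col4a1 at chr8:11198423-11312826, Col4a2 at chr8:11312805-11449287), and their starts overlap on opposite strands. The windows from 250 bases before to 50 bases after each start, from RefSeq on GRCm38.p6, share 78 bases at chr8:11312777-11312854. Both are shown because the pair moved together, with the shared bases in capitals.
Col4a1 (chr8:11312777-11313076, minus strand): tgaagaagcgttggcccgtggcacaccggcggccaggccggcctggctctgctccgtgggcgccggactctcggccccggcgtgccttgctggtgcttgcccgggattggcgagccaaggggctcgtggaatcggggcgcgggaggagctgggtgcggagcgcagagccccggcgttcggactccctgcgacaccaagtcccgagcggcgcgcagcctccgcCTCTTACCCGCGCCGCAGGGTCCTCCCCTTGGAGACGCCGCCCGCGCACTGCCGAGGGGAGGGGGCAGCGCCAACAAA
Col4a2 (chr8:11312555-11312854, plus strand): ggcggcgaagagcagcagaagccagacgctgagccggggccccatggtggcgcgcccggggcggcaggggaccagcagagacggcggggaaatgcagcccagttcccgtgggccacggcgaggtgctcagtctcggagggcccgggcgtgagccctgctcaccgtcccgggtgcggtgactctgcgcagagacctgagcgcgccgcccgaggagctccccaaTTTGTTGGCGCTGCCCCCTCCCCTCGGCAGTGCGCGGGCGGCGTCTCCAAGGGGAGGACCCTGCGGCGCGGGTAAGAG
Neither window held the letters of the motifs searched, which are given further on.

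Col4a1 was at 148 and 129 CPM at ZT2, 131 and 141 at ZT6, 99.8 and 92.5 at ZT10, 77.4 and 87.4 at ZT14, 95.8 and 86.5 at ZT18, and 109 and 125 at ZT22. Its 4 libraries of ZT2 and ZT6 stood above the other 8, and the lowest was ZT14 replicate 1. The fit gave a peak at ZT2.8 ± 0.39 h, a range of 0.80 ± 0.08 and an adjusted p of 0.0174. Col4a2 gave a peak at ZT3.5 ± 0.52 h, a range of 0.78 ± 0.11 and an adjusted p of 0.0335. The ranges of the pair differed by less than their SE.

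Col1a1 (chr11:94936224-94953042), a chain of the fibrillar type I collagen, peaked later than the other called matrix genes, with a peak at ZT5.5 ± 0.51 h, a range of 0.71 ± 0.09 and an adjusted p of 0.0335. It was at 66.03 and 52.6 CPM at ZT2, 66.5 and 75.2 at ZT6, 57.997 and 56.9 at ZT10, 45.9 and 46.7 at ZT14, 43.4 and 37.7 at ZT18, and 51.5 and 50.5 at ZT22. The libraries of ZT6 were the highest pair and those of ZT18 the lowest. Col5a1, a fibrillar chain of type V, gave a peak at ZT3.4 ± 0.46 h, a range of 0.68 ± 0.08 and an adjusted p of 0.0335, and Col6a3, a chain of the microfibril-forming type VI, gave a peak at ZT2.6 ± 0.58 h, a range of 0.88 ± 0.13 and an adjusted p of 0.0354. Fbn1 gave a peak at ZT3.2 ± 0.51 h, a range of 0.79 ± 0.11 and an adjusted p of 0.0335. Eln gave a peak at ZT2.0 ± 0.50 h, a range of 1.12 ± 0.15 and an adjusted p of 0.0354 at a mean of 2.94 CPM.

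The whole family of collagen chain genes was then counted, a group chosen after these values were seen. Of 38 genes tested 5 were called, and 8 with the block, which added Col3a1, Col5a2 and Col5a3. An unadjusted p under 0.05 was reached by 18 of 38, against 8.4% of all genes, and 17 of these 18 peaked between ZT0 and ZT6. Col24a1 was the exception, with a peak at ZT12.3. The median range of the 38 was 0.38. Not all chains took part: Col16a1, Col27a1 and Col4a6 had fitted ranges of 0.07, 0.08 and 0.09 with unadjusted p-values of 0.784, 0.803 and 0.834.

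**Figure D3:**
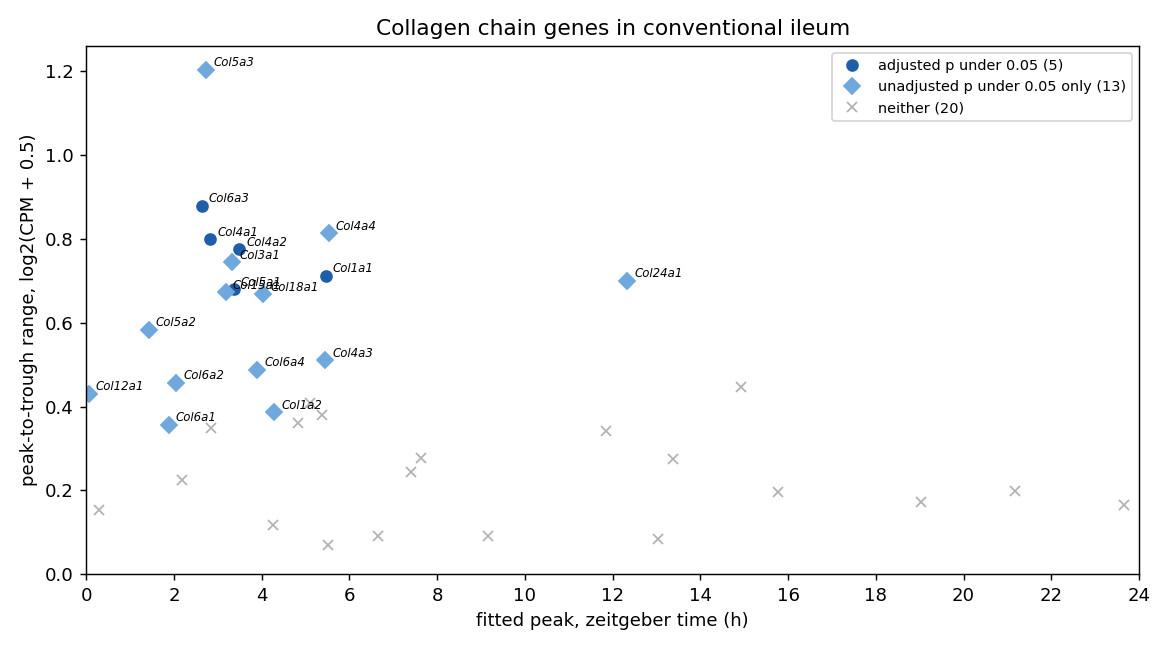
Fitted peak time (zeitgeber time, h) and peak-to-trough range (log2(CPM + 0.5)) of 38 collagen chain genes in conventional ileum: 5 with adjusted p under 0.05, 13 with unadjusted p under 0.05 only, and 20 with neither. All 5 called chains and 12 of the 13 lie before ZT6.

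Markers of the connective tissue and vessel wall were counted beside the collagens. The endothelium and fibroblast marker list had 1 of 14 members called (Col1a1), 4 with the block. An unadjusted p under 0.05 was reached by 11 of its members, 9 of them peaking from ZT0 to ZT12. The list holds the collagen chains Col1a1, Col1a2 and Col3a1, all among the 11, so it is not separate from the collagen count. The block added Col3a1, Pdgfra and Pdgfrb, the last 2 being receptors of platelet-derived growth factors on fibroblasts and pericytes. Pdgfra was at 96.98 and 87.5 CPM at ZT2, 101 and 86.4 at ZT6, 71.2 and 66.6 at ZT10, 57.1 and 61.7 at ZT14, 83.8 and 68.8 at ZT18, and 100.4 and 101 at ZT22, and its fit gave a peak at ZT1.2 ± 0.63 h, a range of 0.72 ± 0.12 and an adjusted p of 0.0715, with an adjusted p of 0.0349 in the block. Of the endothelial markers, the cadherin Cdh5, the receptor Kdr and the adhesion protein Pecam1 had fitted peaks at ZT3.4, ZT3.9 and ZT3.0 with unadjusted p-values of 0.00452, 0.00667 and 0.0203, and none passed adjustment. The 2 members with a peak after ZT12 were Vim, an intermediate filament of mesenchymal cells, at ZT18.6 (unadjusted p = 0.0237), and Lyve1, a hyaluronan receptor of lymphatic vessels, at ZT23.3 (unadjusted p = 0.0246). Dcn and Lum, proteoglycans of fibroblasts, and the matrix protein gene Dpt were the members without an unadjusted p under 0.05, at 0.665, 0.379 and 0.529. Summed over the list, its collagen chains included, the level ran from 716 CPM (ZT14 replicate 1) to 1036 CPM (ZT6 replicate 1). The fitted range of this sum was 0.42 ± 0.06, with a peak at ZT2.9.

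Markers of other cell types were counted in the same way, with no test between lists. The summed level of the 12 smooth muscle markers ran from 2297 to 3303 CPM with a fitted range of 0.23 ± 0.11, and 0 of 12 were called. Of these 12, 4 had an unadjusted p under 0.05 (33.3%), 3 of them with a peak from ZT0 to ZT12. None of the 12 enteric neuron and glia markers, the 15 B cell markers or the 20 T cell markers was called or had an unadjusted p under 0.05 (1 of the 12 neuron and glia markers did with the block). Their sums had fitted ranges of 0.13 ± 0.13, 0.50 ± 1.28 and 0.65 ± 0.37. The B cell sum was split by replicate, at 176 and 15.4 CPM at ZT10 and at 185 and 16.9 CPM at ZT14. With such spread the lack of calls does not show that B and T cell markers were flat. In whole tissue, fewer cells of a type and less RNA per cell cannot be told apart. The part of the stromal markers in the collagen rhythm was not tested. All 17 called genes outside the clock kept an adjusted p under 0.05 with the proximal gut markers as a covariate, an alternative added once the data had been seen, which called 46 genes. Without the 3 libraries of lowest Lct, another such alternative, 5 genes were called and 2 of the 20 were among them, while all 20 kept an unadjusted p under 0.05.

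Later in the day, 4 genes outside the clock peaked between ZT14.6 and ZT16.0. Nampt (chr12:32819545-32853349) codes for the enzyme that limits the salvage of NAD, a known output of the clock in other tissues. Its libraries read 91.3 and 93.4 CPM at ZT2, 98.1 and 93.96 at ZT6, 126 and 135 at ZT10, 149 and 137 at ZT14, 128 and 139.6 at ZT18, and 113 and 117 at ZT22. The range was small and the replicates were close: all 8 libraries from ZT10 to ZT22 exceeded the 4 of ZT2 and ZT6. The fit gave a peak at ZT15.0 ± 0.37 h, a range of 0.66 ± 0.06 and an adjusted p of 0.0291.

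Cd163 (chr6:124304656-124330527) codes for the scavenger receptor by which macrophages take up haemoglobin. It was at 3.46 and 2.70 CPM at ZT2, 3.70 and 3.26 at ZT6, 4.92 and 4.82 at ZT10, 6.24 and 7.21 at ZT14, 5.85 and 5.59 at ZT18, and 3.95 and 4.69 at ZT22, with a peak at ZT15.1 ± 0.37 h, a range of 0.99 ± 0.10 and an adjusted p of 0.0291. Both ZT14 libraries were above all others. It was the 1 member called of 15 macrophage and dendritic cell markers, 3 of which had an unadjusted p under 0.05 (6 with the block). The pan-macrophage genes Adgre1 and Cd68 had fitted peaks at ZT21.7 and ZT23.6 with adjusted p-values of 0.486 and 0.536. The sum of the 15 markers had a range of 0.15 ± 0.09.

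Hspa12a (chr19:58795750-58943654), a distant member of the heat shock protein 70 family, gave a peak at ZT14.6 ± 0.53 h, a range of 0.93 ± 0.13 and an adjusted p of 0.0335, at 41.8 and 43.7 CPM at ZT2, 57.2 and 47.9 at ZT6, 75.7 and 62.9 at ZT10, 84.9 and 77.1 at ZT14, 79.6 and 78.7 at ZT18, and 64.8 and 46.4 at ZT22. Fmo2 (chr1:162874317-162898726), a flavin-containing monooxygenase, had the latest of these peaks, at ZT16.0 ± 0.58 h, a range of 1.06 ± 0.16 and an adjusted p of 0.0333. It was at 30.6 and 28.9 CPM at ZT2, 32.002 and 32.9 at ZT6, 39.1 and 37.5 at ZT10, 56.98 and 57.5 at ZT14, 56.1 and 67.1 at ZT18, and 30.7 and 48.95 at ZT22. The 4 libraries of ZT14 and ZT18 stood above the other 8, and the pair of ZT22 differed by more than any other pair.

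With the block 14 genes peaked from ZT12 to ZT16 and 5 from ZT16 to ZT20, against 6 and 1 without it, clock genes included. Of the genes that the block added, only members of the function lists are described next. Enpep, the glutamyl aminopeptidase of the brush border, was at 2015 and 2150.3 CPM at ZT2, 2301 and 1822 at ZT6, 2719.7 and 2982 at ZT10, 3549 and 3422 at ZT14, 2738 and 3182 at ZT18, and 2589 and 2223 at ZT22. The ZT14 libraries were the highest, and the fit gave a peak at ZT14.8 ± 0.53 h, a range of 0.77 ± 0.11 and an adjusted p of 0.0715, with an adjusted p of 0.0349 in the block. The clock gene Cry2 (an adjusted p of 0.0232 in the block) also joined. In the window of ZT0 to ZT4 the block called 24 genes, against 12 without it. Reg3a, an antibacterial lectin, was among those added there, with a peak at ZT3.1 ± 0.92 h and a range of 0.71 ± 0.17. Its adjusted p was 0.222, and 0.0349 in the block.

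Promoters were compared for the first named gene of each peak window with an entry in the RefSeq promoter table, which gave Col4a1 for ZT0 to ZT4, Nampt for ZT12 to ZT16 and Fmo2 for ZT16 to ZT20. Per3, a clock gene of the middle window, is added as a reference because it holds 2 copies of the D-box letters TTATGTAA, the element read by Dbp and Tef. They are printed in capitals.
Nampt (chr12:32820085-32820384, plus strand): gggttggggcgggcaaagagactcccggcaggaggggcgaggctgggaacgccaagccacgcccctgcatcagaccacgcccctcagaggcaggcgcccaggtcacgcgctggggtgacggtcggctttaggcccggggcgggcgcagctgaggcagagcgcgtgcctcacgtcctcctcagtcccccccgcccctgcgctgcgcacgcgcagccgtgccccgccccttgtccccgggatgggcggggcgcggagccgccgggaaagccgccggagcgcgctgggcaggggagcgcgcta
Fmo2 (chr1:162898709-162899008, minus strand, the first of 2 starts in the table): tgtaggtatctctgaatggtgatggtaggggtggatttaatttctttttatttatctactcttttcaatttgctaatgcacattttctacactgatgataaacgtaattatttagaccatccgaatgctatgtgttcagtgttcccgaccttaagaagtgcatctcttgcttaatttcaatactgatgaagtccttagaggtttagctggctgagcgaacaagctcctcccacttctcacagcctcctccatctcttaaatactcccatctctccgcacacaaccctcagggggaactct
Per3 (chr4:151044616-151044915, minus strand): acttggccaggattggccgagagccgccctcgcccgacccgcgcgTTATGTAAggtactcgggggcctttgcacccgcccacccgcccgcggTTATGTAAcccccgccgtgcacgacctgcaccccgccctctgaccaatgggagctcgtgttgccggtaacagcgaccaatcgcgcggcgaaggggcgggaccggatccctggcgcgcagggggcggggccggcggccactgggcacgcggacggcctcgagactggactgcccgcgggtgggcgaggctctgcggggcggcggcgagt
The window of Fmo2 had 41.3% of G and C, against 74.0% for Col4a1, 76.3% for Nampt and 73.3% for Per3.

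Both strands of these windows were searched for the E-box CACGTG, the D-box TTATGTAA or TTACGTAA, the ROR element core TAGGTCA, the cAMP response element TGACGTCA and the heat shock element core GAANNTTC. None of these motifs contains another. Of the 17 called genes outside the clock 11 had an entry, and 0 of these 11 held any of the 5. Over all genes tested that had an entry the E-box was found in 10.9%, the D-box in 0.909%, the ROR core in 2.397%, the cAMP element in 3.25% and the heat shock core in 7.12%. Of the 15 core clock genes with an entry and an unadjusted p under 0.05, 5 held the E-box. Among genes outside the clock with an unadjusted p under 0.05, the share with an E-box ran from 7.60% (peak ZT0 to ZT4, 263 genes) to 12.9% (ZT12 to ZT16, 224 genes). The D-box was in 7 of 166 such genes peaking from ZT16 to ZT20 (4.22%) and in 0 to 0.893% of those of the other windows. Shares of the other motifs varied by window too. The ROR core ran from 0.60% (ZT16 to ZT20) to 4.18% (ZT0 to ZT4). The cAMP element ran from 1.20% (ZT16 to ZT20) to 4.93% (ZT8 to ZT12), and the heat shock core from 5.42% (ZT16 to ZT20) to 8.04% (ZT12 to ZT16). These are counts of letters with no test.

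The other functions of the ileum were counted by list. Of the 30 function lists, the core clock had 3 members called and the list of polyamine and linked metabolism 1 (Nampt), and 0 were called in the other 28. With the block Enpep was called on the peptide uptake list and Reg3a on the defence list. The lists are therefore described by members with an unadjusted p under 0.05, against 8.4% of all genes (13.4% with the block), with no test between lists, and none of the genes named in the next paragraphs passed adjustment.

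Signals of glucocorticoids and feeding had 8 of 21 members under 0.05, and all 8 peaked from ZT12 to ZT24. Zbtb16, a transcription factor induced by glucocorticoids, had the largest range of the 8 with a peak at ZT15.5 ± 0.85 h, a range of 2.04 ± 0.45 and an adjusted p of 0.140. It was at 3.20 and 1.33 CPM at ZT2, 1.69 and 1.68 at ZT6, 4.46 and 3.34 at ZT10, 11.4 and 9.36 at ZT14, 10.2 and 2.83 at ZT18, and 3.34 and 3.97 at ZT22. Both ZT14 libraries were high, but the pair of ZT18 was split. Tsc22d3, the glucocorticoid-induced leucine zipper, was at 72.8 and 60.04 CPM at ZT2, 45.4 and 46.1 at ZT6, 53.2 and 51.1 at ZT10, 108 and 123 at ZT14, 120.01 and 109.6 at ZT18, and 42.9 and 70.2 at ZT22, so the 4 libraries of ZT14 and ZT18 lay above the other 8. Its fit gave a peak at ZT16.7 ± 0.99 h, a range of 1.24 ± 0.32 and an adjusted p of 0.240. Fkbp5, a co-chaperone of the glucocorticoid receptor, gave a peak at ZT16.9 ± 1.03 h, a range of 1.54 ± 0.42 and an adjusted p of 0.358.

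**Figure D4:**
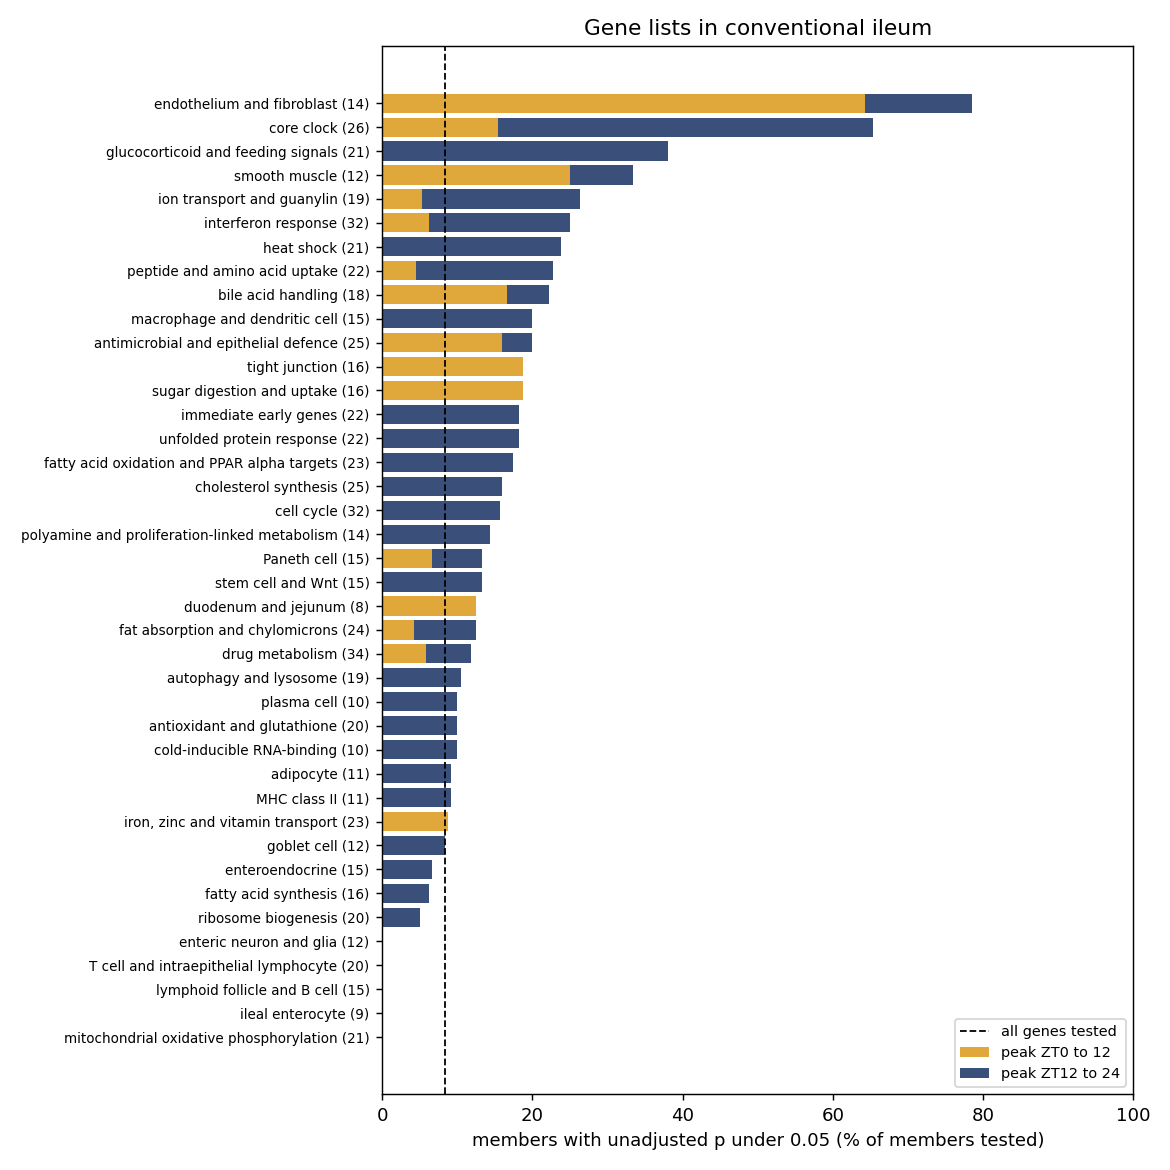
Share of the members tested with an unadjusted p under 0.05 (percent) for each gene list with 8 or more members tested in conventional ileum, split by fitted peak from ZT0 to ZT12 and from ZT12 to ZT24, with the number tested in brackets. The dashed line is the 8.4% of all genes. Endothelium and fibroblast markers (11 of 14, collagen chains among them) and the core clock (17 of 26) stand highest, and 5 lists have no such member.

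Lists of absorption and transport were split by fitted peak at ZT12, and members with peaks close to that border can fall on either side of it. Peptide and amino acid uptake had 5 of 22 members under 0.05, 4 of them peaking after ZT12. Slc6a19, the carrier of neutral amino acids, had a fitted peak at ZT13.8 and a range of 0.59 ± 0.19. Ion transport had 5 of 19 members under 0.05 (8 with the block), 4 of them peaking after ZT12, among them Atp1b1, with a fitted peak at ZT12.2 and a range of 0.54 ± 0.11. Iron, zinc and vitamin transport had 2 of 23, both with a peak from ZT0 to ZT12.

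Sugar handling had 3 of 16. The fructose carrier Slc2a5 was at 24.96 and 23.4 CPM at ZT2, 16.96 and 53.96 at ZT6, 57.9 and 82.3 at ZT10, 65.9 and 62.2 at ZT14, 22.8 and 38.6 at ZT18, and 21.7 and 29.3 at ZT22, with a peak at ZT11.9 ± 0.98 h, a range of 1.63 ± 0.42 and an adjusted p of 0.240. G6pc, the enzyme that releases glucose, ran opposite with a peak at ZT0.4 ± 0.96 h, a range of 1.95 ± 0.49 and an adjusted p of 0.365. Sis, sucrase-isomaltase, had a peak at ZT11.9 and a range of 0.60 ± 0.22. Slc2a5 and G6pc differed between the replicates of ZT6, of which replicate 2 was the library poor in Fabp6.

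Lists of the epithelial barrier came next. Tight junctions had 3 of 16 members under 0.05, among them Cldn4 and Ocln, and all 3 had fitted peaks between ZT0.5 and ZT1.7. Cldn4, a claudin, was at 171 and 223 CPM at ZT2, 182 and 119.6 at ZT6, 81.5 and 104 at ZT10, 59.4 and 76.8 at ZT14, 116 and 168 at ZT18, and 132 and 169.8 at ZT22, with a peak at ZT0.9 ± 0.80 h, a range of 1.32 ± 0.28 and an adjusted p of 0.191. Antimicrobial and epithelial defence had 5 of 25 (8 with the block), with 4 peaking before ZT12, among them Sprr2a1, a small proline-rich protein of the epithelium, with a peak at ZT4.6 ± 0.69 h, a range of 1.45 ± 0.26 and an adjusted p of 0.0767.

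Among lipid lists, members under 0.05 were 4 of 23 for fatty acid oxidation (17.4%), 3 of 24 for fat absorption (12.5%), 4 of 25 for cholesterol synthesis and 1 of 16 for fatty acid synthesis (2 with the block). All 4 of fatty acid oxidation and all 4 of cholesterol synthesis peaked from ZT12 to ZT24. Ppara, the fatty acid sensor, gave a peak at ZT15.6 ± 0.91 h, a range of 0.69 ± 0.17 and an adjusted p of 0.208. Bile acid handling had 4 of 18, 3 of them peaking from ZT0 to ZT12, and neither Fabp6 nor the bile acid carrier Slc10a2 was among them, with unadjusted p-values of 0.605 and 0.482. Drug metabolism had 4 of 34 (8 with the block), led by Cyp2u1, a cytochrome P450, with a peak at ZT10.3 ± 0.94 h, a range of 1.10 ± 0.27 and an adjusted p of 0.222.

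Interferon response had 8 of 32 members under 0.05, of which 6 peaked from ZT12 to ZT24. Irgm1, an interferon-induced GTPase, was at 29.4 and 32.5 CPM at ZT2, 32.7 and 45.7 at ZT6, 60.01 and 59.7 at ZT10, 69.5 and 48.9 at ZT14, 44.6 and 62.04 at ZT18, and 35.1 and 40.9 at ZT22, with a peak at ZT13.5 ± 0.71 h, a range of 0.98 ± 0.18 and an adjusted p of 0.0715. Irgm2 and Ubd, a ubiquitin-like protein, gave ranges of 1.39 ± 0.43 and 2.55 ± 0.90, and their replicates differed widely: Ubd was at 88.6 and 27.1 CPM at ZT10. MHC class II had 1 of 11 (3 with the block).

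In the lists of growth and stress, members under 0.05 had fitted peaks from ZT12 to ZT24. The cell cycle had 5 of 32, and 12 of 32 with the block, with all 5 peaking after ZT12. They were led by the kinase Wee1, a known clock target, with a peak at ZT16.4 ± 0.62 h, a range of 0.61 ± 0.10 and an adjusted p of 0.0916. Heat shock had 5 of 21 (23.8%), all after ZT12, and the unfolded protein response 4 of 22 (18.2%; 7 with the block). The autophagy list had 2 of 19, led by Bnip3, a mitophagy receptor, with a peak at ZT14.3 ± 0.70 h, a range of 0.77 ± 0.14 and an adjusted p of 0.0901. Ribosome biogenesis had 1 of 20 and oxidative phosphorylation 0 of 21, the latter with a median range of 0.09. Paneth cell genes had 2 of 15 (9 of 15 with the block), and goblet cell genes 1 of 12 (3 with the block).

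The 17 genes called outside the clock were then read in samples that had no part in the call. In GF ileum, 15 of 17 had an unadjusted p under 0.05 (10.7% of all genes there) and 5 passed adjustment (1.15%): Spon2, Fmo2, Fbn1, Fst and Adamts4. The fitted peak lay within 2 h of that in convR ileum for 14 of 17. The share of all genes with peaks that close was not counted. Spon2 had a range of 1.75 ± 0.24 there and Fmo2 of 1.52 ± 0.22. Afap1l2 had the smallest range there, at 0.25 ± 0.26. The median range of the 17 was 0.69 in GF and 0.96 in convR, whose libraries chose the genes.

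In convR duodenum, 14 of 17 had an unadjusted p under 0.05 (10.4% of all genes) and 0 passed adjustment (0.0306%). The peaks lay within 2 h of those in ileum for 16 of 17, again with no share over all genes counted. Cd163 was the exception at ZT17.8 there. Libraries of the same number and time may come from 1 mouse in ileum and duodenum, so these are not independent samples. Col4a1 peaked at ZT4.4 in GF ileum and at ZT3.8 in convR duodenum, against ZT2.8 here.

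**Figure D5:**
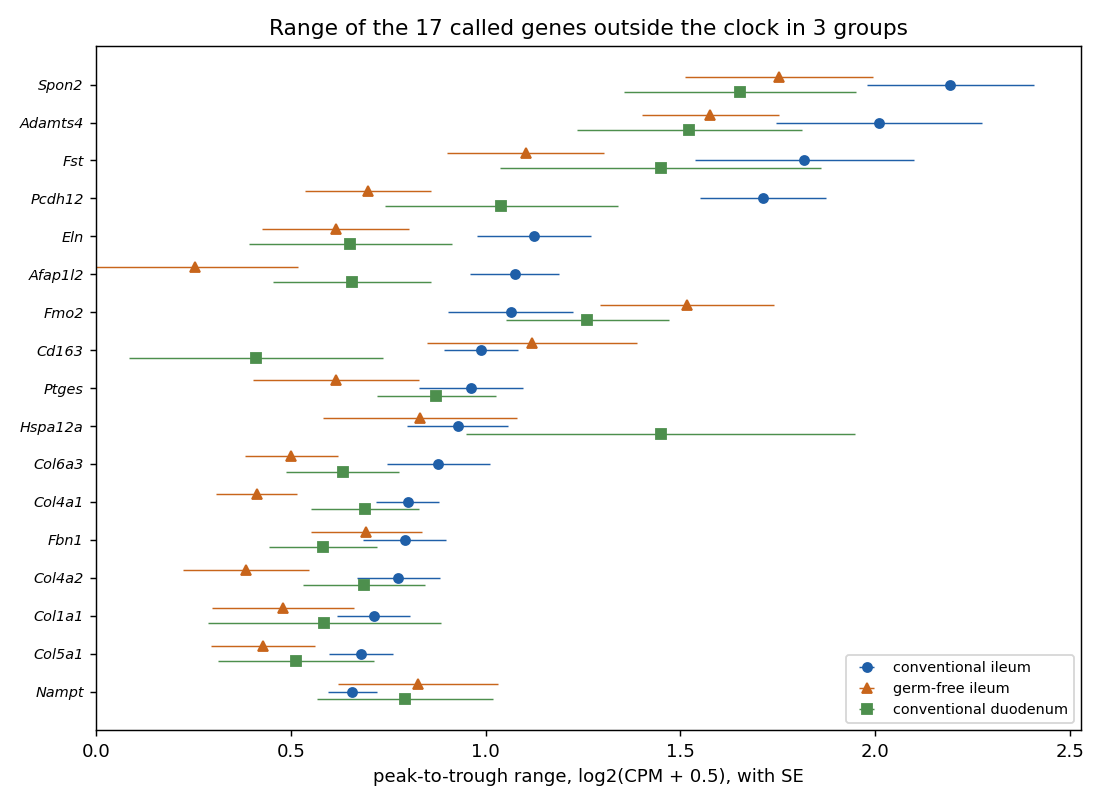
Peak-to-trough range (log2(CPM + 0.5)) with SE of the 17 called genes outside the clock in conventional ileum (12 libraries), germ-free ileum (11) and conventional duodenum (12). The genes were called on conventional ileum, and 14 of 17 ranges are smaller in each of the other groups.

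The difference in rhythm was tested by itself. Between convR and GF ileum 0 of 20227 genes passed adjustment (0%) with edgeR and 0 with DESeq2, and 694 had an unadjusted p under 0.05 (3.43%). The smallest p among named genes was that of Vwa5a (0.000148, adjusted p = 1), with a range of 0.44 ± 0.10 and a peak at ZT12.2 here and a range of 0.37 ± 0.06 and a peak at ZT4.4 in GF. F2r, the thrombin receptor, Skil, Pcdh12, Cyp4f16 and Acsl1 followed, with p from 0.000264 to 0.00124. Pcdh12 had a range of 0.70 ± 0.16 in GF against 1.71 ± 0.16 here. Of the 17 called genes 6 had an unadjusted p under 0.05 in this test, which shares the libraries they were called on.

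Between ileum and duodenum of convR mice 0 of 20024 genes passed (0%), and 629 had an unadjusted p under 0.05 (3.14%). DESeq2 passed 5 (Arsg, Itpr1, Muc6, Sprr2a2 and Ly6g6c). With each time and number as a block, edgeR passed 2, Nox1 and the clock gene Dbp, with adjusted p of 0.0230 and 0.0291. Dbp peaked at ZT12.5 ± 0.69 h in ileum and at ZT10.2 ± 0.87 h in duodenum. Nox1, an epithelial NADPH oxidase, peaked at ZT0.40 ± 1.1 h in ileum and at ZT6.9 ± 1.6 h in duodenum. The smallest p of the test without the block belonged to Arsg, an arylsulfatase (2.1e-05, adjusted p = 0.419), with a range of 0.51 ± 0.29 in ileum and 1.81 ± 0.21 in duodenum. Itpr1, S100a11, Pcp4l1, Noxa1 and Tmc7 followed, with p from 0.000155 to 0.000509.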

How the data were processed

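The authors deposited read counts per gene, with the summed exon length of each gene. The submitters' processing notes name the aligner STAR 2.4.0i and the genome build mm10. Which program counted the reads, with which annotation and strand setting, is not given in the sources used here, so counts of overlapping genes are uncertain. Libraries were stranded total-RNA preparations from 250 ng, per the labels' protocols. Of 38087 genes 36308 were matched to GENCODE M21 by identifier for symbols and positions.

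Counts of the 12 convR ileum libraries (29.1 to 41.9 M) were scaled by TMM, genes under a minimum of 10 counts were dropped with filterByExpr, and cosine and sine of a 24 h period were tested together (edgeR 4.0.16 quasi-likelihood F test, 2 degrees of freedom, robust; Benjamini-Hochberg over all genes, 5%; R 4.3.3). Peaks and ranges came from least squares on log2(CPM + 0.5), so low genes have understated ranges. Differences in rhythm to GF ileum and convR duodenum were tested as interaction terms. Alternatives used limma 3.58.1 and DESeq2 1.42.0. The scripts were tested on simulated data.

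Same-numbered libraries deviated together in convR ileum: the difference between replicates 1 and 2, correlated over genes between times, was above 0.1 in 15 of 15 pairs of times (0.1003 to 0.600), and between ileum and duodenum in 6 of 6 times (0.245 to 0.544). This comes from the data, not from the labels, and blocked counts are given beside the counts of convR ileum that they move by over 1.5 times. Between convR and GF it was above 0.1 in 2 of 5.

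Members, gene lists and tests were chosen with earlier results of these data known. Genes were named by rule: outside the clock list and at 2 CPM or more, the 4 smallest p of each of 6 peak windows of 4 h, the 8 largest ranges, up to 3 called members of each list with defining members that did not pass, and the 6 smallest p of each difference; predicted genes, pseudogenes and receptor segments were passed over. Called genes outside the rule (Adamts4, Fbn1, Col4a2, Col5a1 and Col6a3), the collagen family, genes called only with the block, Nox1, and list members described by unadjusted p were named after their values were seen. Lists without a sentence of their own in the report (cold-inducible RNA-binding 1 of 10 and 2 with the block, immediate early genes 4 of 22, stem cell and Wnt 2 of 15 and 5 with the block, enteroendocrine 1 of 15, antioxidant and glutathione 2 of 20, colon 1 of 4 and 2 with the block, pancreas acinar 0 of 5 and 1 with the block, plasma cell 1 of 10, adipocyte 1 of 11, red blood cell 0 of 5, duodenum and jejunum 1 of 8 and 2 with the block, ileal enterocyte 0 of 9; members with an unadjusted p under 0.05) had no member called. A few genes are not reported here.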

Additional observations from a re-analysis of the deposited data

How the results depend on the processing

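The number of genes called rhythmic was 20. It moved by more than 1.5 times with library size only (9), a 1% threshold (2), DESeq2 (268), the replicate block (47), the proximal marker covariate (46), that covariate with the block (90), without the 3 libraries of lowest Lct (5, with 2 of the 20 among them), and without both libraries of ZT2 (8), ZT10 (0), ZT14 (0), ZT18 (31) or ZT22 (163); the covariate and the omission of several libraries were chosen after seeing the data. Omitting 1 library gave 1 to 35. It stayed within that bound with RLE factors (24), a looser filter with no minimum count per library (23), a minimum of 50 counts (22) and limma (23). The same held for time as a factor (15, 4 of the 20 genes among them), 2 harmonics (16, 6 of the 20) and without ZT6 (15). The cause was not tested. The share of the 20 called genes peaking from ZT0 to ZT4 was 60.0%, and with the replicate block it was 24 of 47. The share was 100% at the 1% threshold and 37.5 to 100% when 1 library was omitted. Genes share the same 12 libraries, so no interval is given. Peak times of the called genes moved by no more than 6 h in any fit of the 24 h cosine alone. For limma and DESeq2 the peaks were those of the main fit. The replicate block could not move them, since each time held both replicates. Peaks were not compared for time as a factor or for 2 harmonics.

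For the difference to GF ileum, 0 genes passed in each of the 18 alternatives, the replicate block included (853 with an unadjusted p under 0.05, against 694 without it). For the difference to duodenum the replicate block by number gave 0, the block by time and number 2 and DESeq2 5, and omitting 1 library gave 0 to 1 (Arsg, without ZT22 replicate 1). Each time had 2 libraries (1 in GF ileum at ZT2), and a count of 0 does not show that rhythms were alike.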

Other observations

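Among genes with an unadjusted p under 0.05, 386 of 1619 peaked from ZT0 to ZT4 (23.8%) and 339 from ZT12 to ZT16 (20.9%), while each of the other 4 windows of 4 h held 197 to 234. The fitted peaks of all 19277 genes were spread evenly, with 15.8 to 17.5% in each window. In GF ileum the window with most called genes was ZT20 to ZT24 (74 of 224), a window with 0 of the 20 called in convR ileum. The test of a difference in rhythm between the groups passed 0 genes, and GF ileum at ZT2 had 1 library.

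Among the 20 called genes, the fold of the time means was largest in Adamts4, which fell from 3.05 CPM at its highest time to 0.409 CPM at ZT14, a ratio of 7.46. The stem cell genes Sox9 and Ascl2 had fitted peaks after ZT12, and neither passed adjustment. Sox9, a transcription factor of crypt cells, peaked at ZT12.9 with a range of 0.49 ± 0.09 and an adjusted p of 0.191. Ascl2, a factor of crypt base stem cells, peaked at ZT16.3 with a range of 0.75 ± 0.15 and an adjusted p of 0.205. They were the 2 of 15 list members with an unadjusted p under 0.05 (13.3%, against 8.4% of all genes). With the block 5 of the 15 were under 0.05, against 13.4% of all genes. Lgr5, the defining stem cell receptor, was not among the 2.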
